A study of Mus musculus with 11 samples.

Results

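The integrated stress response and the unfolded protein response were followed through 10 genes, chosen by name among the 55421 genes of the count tables. These were Atf4, Atf5, Ddit3, Chac1, Trib3 and Asns, taken here as the Atf4 arm, and Ern1, Xbp1, Atf6 and Herpud1, taken as the Xbp1 arm. Their symbols matched 11 rows, because Ddit3 stood for a second gene ID (ENSMUSG00000116429) that had 0 reads in all 11 libraries. RNA bound to ribosomes of Purkinje cells was measured in mouse cerebella on postnatal day 56, with 1 library per animal tag. In the 4 KO animals (Pcp2Cre;Tie2flox/flox;Rpl22HA/HA) the Pcp2 promoter drives a Cre recombinase that acts both on floxed alleles of Tie2, the angiopoietin receptor encoded by Tek, and on a tagged allele of the ribosomal protein gene Rpl22. The 7 WT animals (Pcp2Cre;Rpl22HA/HA) carried the same Cre and the same tagged ribosome, so neither group is free of either, and the tag was used to pull ribosomes out of whole cerebellum. Batch 1 held 2 KO and 1 WT libraries, batch 2 held 1 of each, and batch 3 held 1 KO and 5 WT libraries. Each animal tag starts with F or M, as in KO F371 and KO M374. The labels do not say which tag belongs to which litter or day. The p-values therefore set the KO and WT difference against the spread between these animals within batches, and reach no further than these animals.

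When a cell is short of amino acids, or unfolded proteins build up in its endoplasmic reticulum, kinases phosphorylate the initiation factor eIF2 and most translation slows. The mRNA of Atf4 is an exception, since its upstream reading frames let ribosomes reach the main frame under these conditions, and the transcription factor it encodes switches on genes of amino acid supply and, with prolonged stress, of cell death. The unfolded protein response adds a pair of membrane sensors to the eIF2 kinase of the reticulum. Ern1 encodes IRE1 alpha, which removes a short intron from Xbp1 mRNA so that it encodes an active transcription factor, and Atf6 encodes a factor that is cut loose from the membrane. Gene counts, as used here, tell neither spliced from unspliced Xbp1 nor the upstream from the main reading frame of Atf4.

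The DNA elements through which these factors act are shown first, because the genes that carry them can be compared with the genes that encode the factors. RefSeq promoters (GRCm38.p6, 250 bases before the gene start and 50 after it) were listed for 9 of the 10 genes, all but Atf6, and Atf5 had a pair of them. Both strands were searched for TGATGNAA, the C/EBP-ATF response element bound by Atf4, for TGACGTGG, the unfolded protein response element bound by Xbp1, for the endoplasmic reticulum stress element (CCAAT and CCACG with 9 bases between them) and for its second form (ATTGG and CCACG with 1 base between them). The C/EBP-ATF element was present in the promoters of 4 genes, Chac1, Trib3, Asns and Herpud1, and in 3.97% of all 32851 listed promoters (1304). The second stress element was found in Herpud1 alone among the 10 genes and in 0.0365% of all promoters (12). The other motifs, present in 0.676% and 0.119% of all promoters, were in no window of these genes. The strands upstream of the gene start are printed 5′ to 3′ in the direction of the gene, with every match in capitals. Chac1 (chr2:119350992-119351241, plus strand) has TTGCATCA, the element on the opposite strand, at bases -193 to -186, Asns (chr6:7693210-7693459, minus strand) has TGATGAAA at -23 to -16, and Herpud1 (chr8:94386179-94386428, plus strand) has TTGCATCA at -112 to -105 and the second stress element at -52 to -42.
Chac1: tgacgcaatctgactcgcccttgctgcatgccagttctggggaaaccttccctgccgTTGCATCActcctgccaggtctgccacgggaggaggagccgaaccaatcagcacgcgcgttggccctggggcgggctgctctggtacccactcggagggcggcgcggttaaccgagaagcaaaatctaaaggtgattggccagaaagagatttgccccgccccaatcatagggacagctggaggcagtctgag
Asns: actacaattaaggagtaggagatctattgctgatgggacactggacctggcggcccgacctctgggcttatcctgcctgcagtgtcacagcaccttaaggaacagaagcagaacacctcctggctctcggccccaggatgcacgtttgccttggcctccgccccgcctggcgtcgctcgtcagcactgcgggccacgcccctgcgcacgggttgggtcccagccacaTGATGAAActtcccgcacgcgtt
Herpud1: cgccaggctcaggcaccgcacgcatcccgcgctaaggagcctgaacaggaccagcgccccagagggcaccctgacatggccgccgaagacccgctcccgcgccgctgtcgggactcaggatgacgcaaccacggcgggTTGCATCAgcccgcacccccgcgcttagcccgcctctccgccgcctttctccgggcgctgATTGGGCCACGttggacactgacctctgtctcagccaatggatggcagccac
The match of Trib3, TTACATCA, lay after the gene start at bases 15 to 22. A match describes letters in a window and does not show binding.

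Reads in genes numbered 2.58 to 4.20 M in KO libraries (3.38 M ± 0.660) and 4.09 to 5.14 M in WT libraries (4.57 M ± 0.394; SD, n = 4 and 7). Tek itself had 0, 7, 0 and 14 reads in KO animals F371, M374, M390 and M456, and 0 to 40 reads in WT animals, with the highest KO value above 5 of the 7 WT values. A gene count includes reads outside the floxed part, so it does not check the genotype. Summed markers of Purkinje cells lay between 4336 and 6185 CPM (read counts scaled to the TMM-adjusted library total) in KO and between 4377 and 5055 CPM in WT libraries, and 5 of 10 were called higher. Among markers of other cells, endothelial ones reached their highest sum in a WT library and those of the other types in a KO library. Granule cell markers summed to 472 to 1389 CPM in KO and 348 to 728 CPM in WT (6 of 10 called higher), and those of Bergmann glia and astrocytes to 363 to 946 CPM in KO and 276 to 475 CPM in WT (5 of 10). Oligodendrocyte markers had 314 to 944 CPM in KO and 275 to 701 CPM in WT (2 of 9 tested), and microglial markers 15.4 to 87.7 CPM in KO and 15.7 to 39.3 CPM in WT (3 of 7 tested). Interneuron and unipolar brush cell markers had 41.3 to 134 CPM in KO and 15.7 to 42.8 CPM in WT (2 of 3 tested). Endothelial markers had sums of 15.6 to 92.8 CPM in KO and 10.6 to 105 CPM in WT (1 of 5 tested), and choroid plexus markers 265 to 589 CPM in KO and 273 to 423 CPM in WT (1 of 3 tested). None of these markers was called lower, where 10.9% of all tested genes were called higher and 13.4% lower. Zic2, Olig2, P2ry12, Cdh5, Kdr, Folr1, Kcnj13, Pax2, Eomes and Sorcs3 had 0 reads in at least 1 library, and no marker had 0 reads throughout a group. The part of other cells in the differences was not tested. A purity score subtracted the average log2 CPM of markers of granule cells, astroglia and oligodendrocytes from the Purkinje average, and it was 3.69 and 2.93 in KO against 4.21 in WT of batch 1, 4.05 in KO against 4.30 in WT of batch 2, and 2.73 in KO against 3.16 to 3.71 in WT of batch 3. In such bulk pull-downs fewer cells of a type and less RNA per cell cannot be told apart.

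Neither arm moved as a block. In KO libraries the transcription factor genes Atf4 and Atf5 and the sensor gene Ern1 were higher, while Xbp1, Ddit3, Asns and Chac1 were lower, so that 3 of the 9 genes that passed the low-count filter were called higher and 4 lower (quasi-likelihood test of edgeR that includes batch, adjusted p under 0.05 over all 13375 tested genes). Among all tested genes 10.9% were called higher and 13.4% lower, against 33.3% and 44.4% of these 9, a description with no test since the genes were named with results of these data in view. Every KO library lay below every WT library for 1 gene, Chac1, where 6.77% of all tested genes had that separation, and no gene of the set had every KO library above every WT library, where 6.2% of all tested genes did. The 7 calls rest on few animals. Without KO M456, the shallowest library and the one with the lowest purity score, 0 of the 10 genes were called, and without WT M379, the only WT library of batch 1, again 0. With the library total or the purity score as a covariate edgeR also called 0 of them, with 2 at an unadjusted p under 0.05 in each case, and all 7 fold changes kept their sign in these 4 fits.

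**Figure D1:**
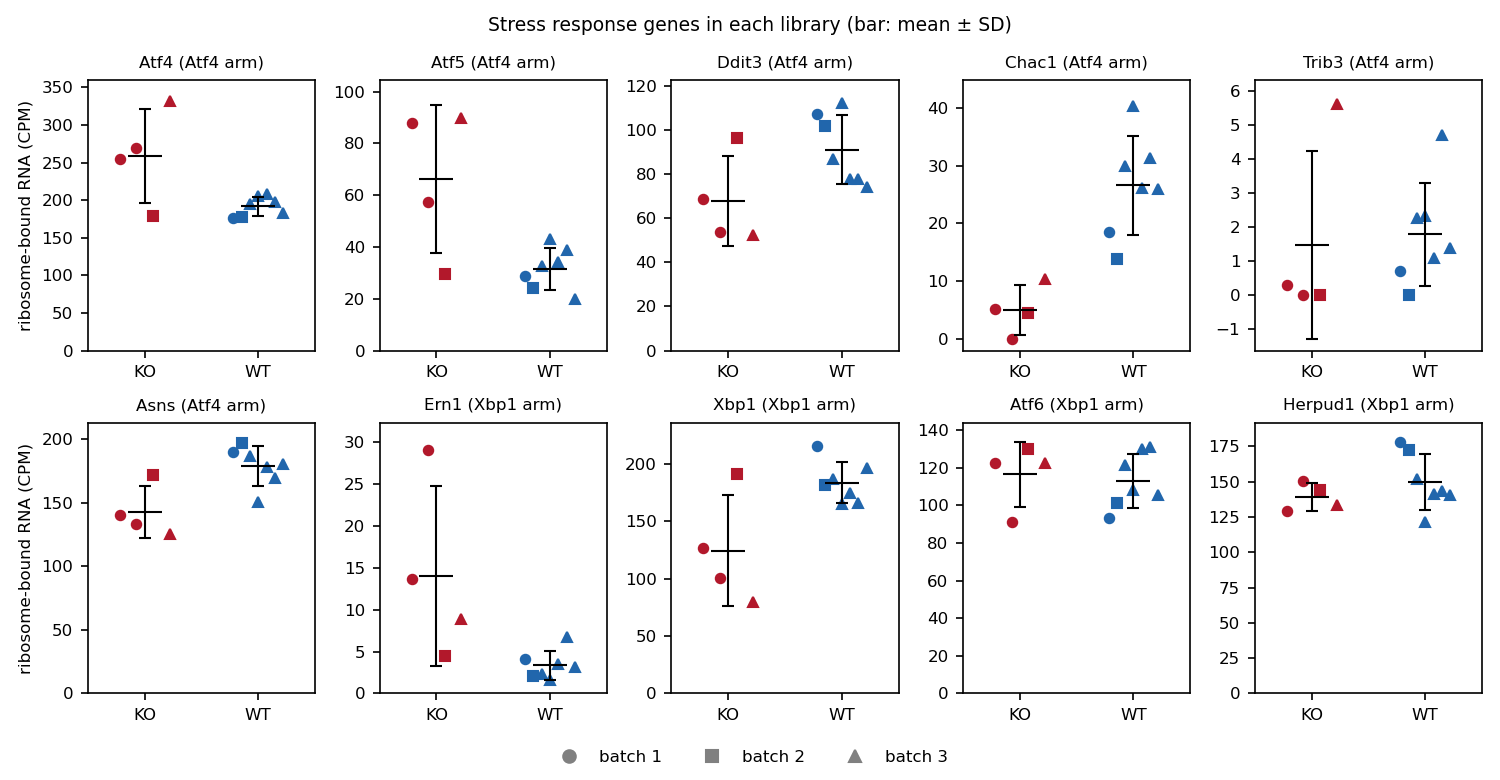
Ribosome-bound RNA in CPM (y axis) for each of the 10 genes in KO and WT libraries, 1 point per library with its shape giving the batch and bars giving mean ± SD (n = 4 and 7). Chac1 is the gene whose KO points, 0 to 10.4 CPM, all lie below the WT points, which start at 13.9 CPM, and the KO point of batch 2 sits among the WT points for Atf4, Atf5, Ddit3, Asns, Ern1 and Xbp1.

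Atf4, whose product is the central transcription factor of the integrated stress response, was higher in KO libraries (ENSMUSG00000042406, chromosome 15, 80255184 to 80257545). It stood at 254 and 269 CPM in KO F371 and M374 of batch 1, 179 CPM in KO M390 of batch 2 and 332 CPM in KO M456 of batch 3, against a lowest, median and highest WT value of 176, 195 and 208 CPM. The other KO libraries were above all WT libraries, and M390 was level with its batch partner M386, at 177 CPM. Its fitted log2 difference was 0.51 ± 0.11 (SE; adjusted p = 0.00664 by edgeR), with within-batch log2 ratios of 0.57, 0.01 and 0.74. The adjusted p was 0.179 without KO M456 and 0.0546 without WT M379.

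Atf5, a related factor that is translated under the same conditions, rose more steeply (ENSMUSG00000038539, chromosome 7, 44812256 to 44816658). KO libraries held 87.9 and 57.3 CPM in batch 1, 29.5 CPM in batch 2 and 89.9 CPM in batch 3, and WT libraries 19.8, 32.6 and 43.0 CPM as lowest, median and highest. Again M390 lay within the WT range and the other KO libraries above it. The log2 fold change was 1.13 ± 0.25 (adjusted p = 0.00685; 0.179 without KO M456 and 0.0594 without WT M379), and the ratios were 1.31, 0.29 and 1.40 in batches 1 to 3. Nup62 and Il4i1b overlap the gene, and with the strand setting not given in the sources used here reads of overlapping genes cannot be told apart.

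Ddit3 encodes CHOP, the factor that Atf4 induces when stress persists, and it was lower (ENSMUSG00000025408, chromosome 10, 127290793 to 127296291). Its KO values were 68.8 and 53.7 CPM in batch 1, 96.4 CPM in batch 2 and 52.2 CPM in batch 3, and its WT values 74.0, 86.8 and 112 CPM as lowest, median and highest. M390 was once more inside the WT range, and the other KO libraries were below it. The log2 fold change of -0.58 ± 0.18 had an adjusted p of 0.0310, and the within-batch ratios were -0.80, -0.08 and -0.71. The call was lost without KO F371, M374 or M456, without WT M379, without the batch term (adjusted p = 0.120) and by limma-voom. Ddit3 overlaps Mbd6 and Mars1, the methionyl tRNA synthetase gene (Mars in the count tables), which also fell, and how reads in the overlap were assigned was not tested.

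Among genes switched on by Atf4, Chac1 showed the largest difference of the set. It encodes an enzyme that degrades glutathione (ENSMUSG00000027313, chromosome 2, 119351242 to 119354326) and carries the C/EBP-ATF element printed above. KO libraries had 18, 0, 19 and 26 reads, or 5.22, 0, 4.49 and 10.4 CPM in F371, M374, M390 and M456, while WT libraries had 60 to 173 reads, or 13.9, 26.1 and 40.2 CPM as lowest, median and highest. The 0 in M374 allows up to 0.891 CPM (3 reads, counting error only). All KO libraries were below all WT libraries, and the lower WT values were those of batches 1 and 2, at 18.5 and 13.9 CPM. The mean was 5.04 ± 4.28 CPM in KO and 26.5 ± 8.62 CPM in WT (SD, n = 4 and 7), and the log2 fold change was -1.97 ± 0.49 (adjusted p = 0.0103; 0.0727 without KO M456 and 0.123 without WT M379). The within-batch log2 ratios were -2.61, -1.53 and -1.51. The fitted log2 fold change was -0.73 when the purity score entered the model and -2.39 when the library total did.

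Asns, the asparagine synthetase gene (ENSMUSG00000029752, chromosome 6, 7675165 to 7693209), has the element just before its start and was lower by a small amount. The KO values were 141 and 134 CPM in batch 1, 172 CPM in batch 2 and 125 CPM in batch 3, and the WT values 150, 181 and 197 CPM as lowest, median and highest. Each KO library was below the WT libraries of its own batch, while M390 was above some WT libraries of batch 3. The log2 fold change was -0.40 ± 0.11 (adjusted p = 0.0162), with ratios of -0.47, -0.19 and -0.46. Its call was lost without KO M456 (adjusted p = 0.137), without WT M379 (0.114) and without the batch term (0.0505). Trib3, a pseudokinase gene that damps the response (chromosome 2, 152337425 to 152344060), was too weakly counted to test. It had 1, 0, 0 and 14 reads in KO F371, M374, M390 and M456, against 0 to 23 reads in WT, and without a filter on low counts its log2 fold change was 0.35 ± 0.92 (adjusted p = 0.827).

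In the Xbp1 arm the sensor and its substrate moved in opposite directions. Ern1 (ENSMUSG00000020715, chromosome 11, 106397620 to 106487796) had 47, 98, 19 and 22 reads in KO F371, M374, M390 and M456, or 13.6, 29.1, 4.49 and 8.83 CPM, against 7 to 33 reads in WT, with a lowest, median and highest value of 1.63, 3.18 and 6.74 CPM. M374 stood far above the other KO libraries, and M390 overlapped with WT. The log2 fold change was 1.64 ± 0.52 (adjusted p = 0.0335), with ratios of 2.25, 0.95 and 1.24 in batches 1 to 3. The call was lost when M374, M456, M379, F473, M477 or M480 was left out and in animals tagged M only (adjusted p = 0.0522).

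Xbp1 (ENSMUSG00000020484, chromosome 11, 5520641 to 5525993) was lower. Its KO values were 127 and 101 CPM in batch 1, 191 CPM in batch 2 and 79.5 CPM in batch 3, against 165, 181 and 216 CPM as the lowest, median and highest WT values. The KO libraries of batches 1 and 3 were below all WT libraries, and M390 was above its partner M386, at 181 CPM. The log2 fold change was -0.75 ± 0.17 (adjusted p = 0.00832; 0.144 without KO M456 and 0.102 without WT M379). The within-batch ratios were -0.92 and -1.16 in batches 1 and 3 and 0.07 in batch 2, which makes Xbp1 the only called gene of the 7 whose sign differed between batches. Among all called genes of the comparison 87.7% kept 1 sign in the 3 batches.

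Atf6 and Herpud1 did not pass the test. Atf6, the gene of the membrane-bound sensor (ENSMUSG00000026663, chromosome 1, 170704457 to 170868585), ranged from 91.2 to 130 CPM in KO and from 93.5 to 131 CPM in WT, with a log2 fold change of 0.17 ± 0.14 (adjusted p = 0.365). Herpud1 encodes a membrane protein that takes part in the degradation of unfolded proteins (ENSMUSG00000031770, chromosome 8, 94386429 to 94395371), and its promoter holds both a C/EBP-ATF and a stress element. Its KO values were 129 to 150 CPM and its WT values 122 to 178 CPM, and the log2 fold change was -0.21 ± 0.11 (adjusted p = 0.176), with ratios of -0.35, -0.26 and -0.06. KO and WT values overlapped for both genes. Atf6 overlaps 4 predicted genes (Gm symbols).

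**Figure D2:**
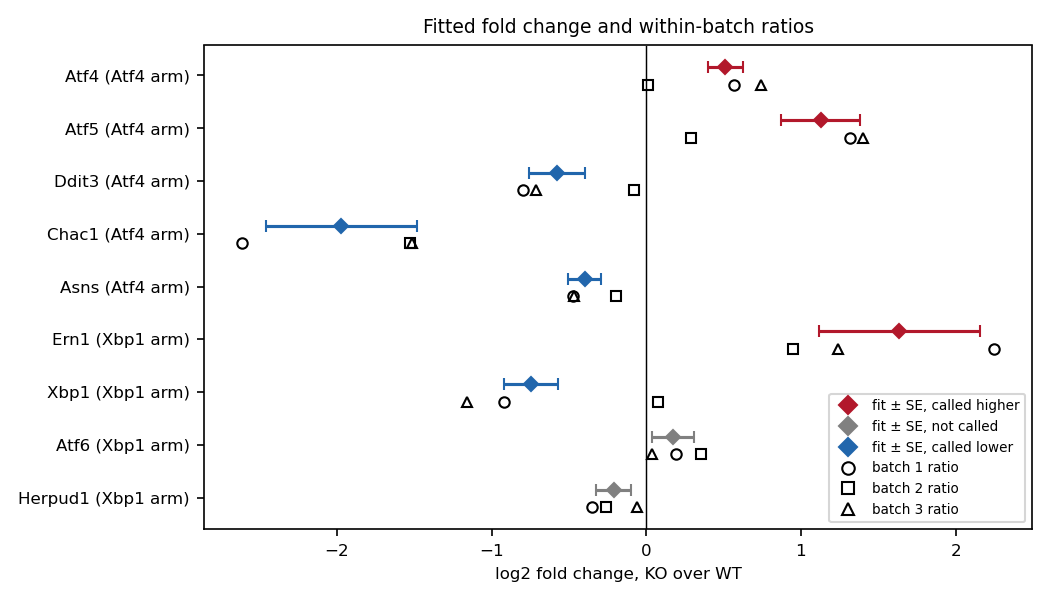
Log2 fold change of KO over WT (x axis) for the 9 tested genes, with diamonds and bars for the batch-adjusted fit ± SE, coloured by its call, and open symbols for the ratio within each batch. The batch 2 squares lie near 0 for Atf4 (0.01), Ddit3 (-0.08) and Xbp1 (0.07), but not for Chac1 (-1.53) or Ern1 (0.95).

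The size of the difference went by batch. Counted toward the direction of each call, batches 1, 2 and 3 had median log2 ratios of 0.92, 0.19 and 1.16 over the 7 called genes. The same median over all called genes of the comparison was 0.92, 0.23 and 0.96, and was smallest in batch 2 as well. Batch 2 was also the batch in which KO and WT were closest in depth, at 4.20 M and 4.34 M reads, and in purity score. These values stand beside the differences, and with 1 library of each group in batch 2 their parts cannot be told apart.

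Set side by side, the arms differed in their averages less than the genes within them. The mean fitted log2 fold change was -0.26 over the 5 tested genes of the Atf4 arm (median -0.40) and 0.21 over the 4 genes of the Xbp1 arm (median -0.02), where mean and median differ in sign and Ern1 has the highest value. The mean log2 CPM of the Atf4 arm was 5.80 ± 0.446 in KO and 6.24 ± 0.162 in WT libraries, and that of the Xbp1 arm 6.11 ± 0.187 in KO and 5.84 ± 0.185 in WT (SD, n = 4 and 7). These means pool batches that KO and WT fill unevenly. In batches 1, 2 and 3 the Atf4 arm differed by -0.56, -0.30 and -0.08 (KO minus WT). The Xbp1 arm differed by 0.27, 0.28 and 0.07. Genes differ in length, so the gap between arms is read only between libraries and not as a level. The Atf4 arm minus the Xbp1 arm gave -0.14 and -1.13 in KO against 0.19 in WT of batch 1, -0.28 in KO against 0.31 in WT of batch 2, and 0.31 in KO against 0.22 to 0.97 in WT of batch 3. For this gap KO minus WT was -0.82, -0.58 and -0.15 in batches 1, 2 and 3, and in batch 3 the KO library lay inside the WT range. KO M374 was the library with 0 reads of Chac1. The fitted gap of -0.47 was -0.19 without KO M374, -0.29 without KO M390 and -0.71 without KO M456. Trib3 passed the filter in the fits without M374 and without M390 and entered the Atf4 arm there. Those gaps therefore reflect a changed gene set as well as the library left out. With Trib3 included the difference in batch 3 turned to 0.09. Chac1 (log2 fold change -1.97, 63 reads in all KO libraries) and Ern1 (1.64, 108 reads in all WT libraries) weigh most in the gap. Whether the gap remains without either gene was not computed. Being an average over genes chosen with results known, the gap was not tested.

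**Figure D3:**
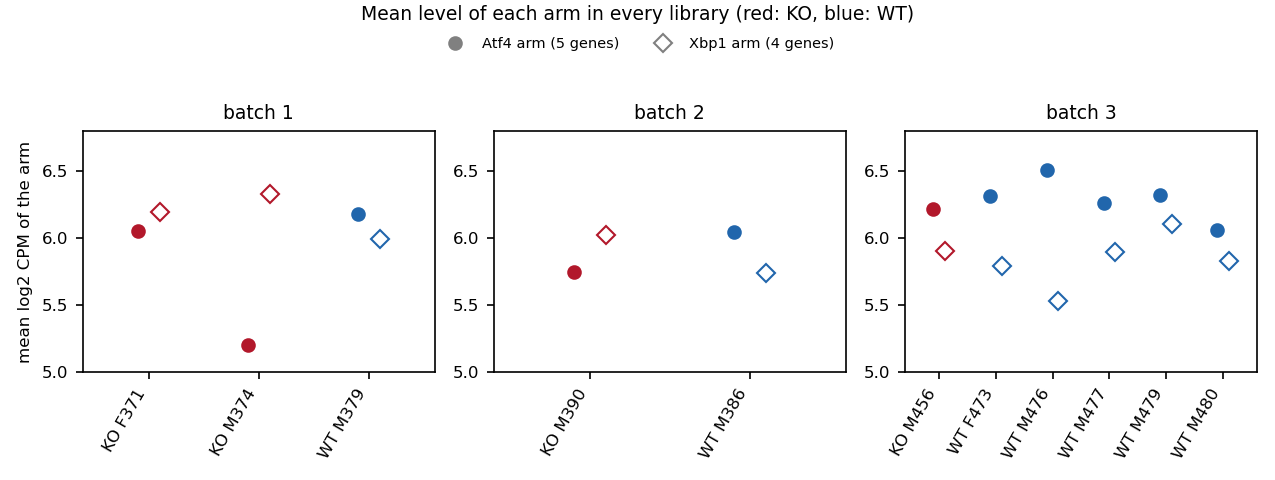
Mean log2 CPM (y axis, from 5) of the 5 tested Atf4 arm genes (filled circles) and the 4 Xbp1 arm genes (open diamonds) in each library, by batch, with KO libraries in red and WT libraries in blue. The Atf4 arm lies below the Xbp1 arm in the KO libraries of batches 1 and 2 and above it in KO M456 and in all 7 WT libraries. Since genes differ in length, which arm lies higher has no meaning as a level, and only changes between libraries are read.

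The other genes of these pathways were taken from lists written from general knowledge. Over all lists, 13 of 116 tested genes were called higher (11.2%) and 24 lower (20.7%), beside 10.9% and 13.4% of all tested genes, with a median log2 fold change of 0.03 beside -0.02 over all tested genes. Without KO M456 the counts were 1 higher and 2 lower, and without WT M379 0 higher and 2 lower. Eif2b1 and Sec61a1 stayed called lower in both of these fits, and Ndrg1 stayed called higher without M456 but not without M379 (adjusted p = 0.0532) or without the batch term (log2 fold change 1.31, adjusted p = 0.118). Without the batch term the calls of Eif2s1, Eif2b3, Slc1a4, Slc7a5, Vldlr, Pdia3, Sdf2l1 and Pdia4, all described below, were lost as well.

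Genes of eIF2 and its control had 1 of 14 tested members higher (7.14%, against 10.9% of all tested genes) and 4 lower (28.6%, against 13.4%), with a median of 0.06. Eif2s1, the alpha subunit that stress kinases phosphorylate, fell by 1.32 ± 0.27 on the log2 scale (49.8 ± 37.9 CPM in KO and 87.7 ± 22.1 CPM in WT), while Eif2s2, the beta subunit, rose by 0.56 ± 0.13. Subunit genes of eIF2B, the exchange factor that reloads eIF2, fell in 3 of 5 cases. Eif2b1 was at 51.5 ± 26.5 CPM in KO and 107 ± 11.8 CPM in WT (log2 fold change -1.26 ± 0.20, adjusted p = 0.00206), Eif2b2 changed by -1.31 ± 0.26 and Eif2b3 by -0.88 ± 0.21. For Eif2b1 and Eif2b2 no KO library reached the WT range, as in 6.77% of all tested genes, and their batch 2 ratios were -0.38 and -0.19. For Eif2s1 and Eif2b3 KO and WT values overlapped, and the batch 2 ratios were -0.07 and -0.15. Eif2ak3, the eIF2 kinase of the reticulum, did not pass (0.15 ± 0.26, adjusted p = 0.700; a gene chosen after its values were seen).

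Of 25 tested targets of Atf4, 5 were higher (20%, against 10.9% of all tested genes) and 2 lower (8%, against 13.4%), with a median of 0.23. The list held 29 genes, and Cebpb, Slc7a3, Gdf15 and Fgf21 did not pass the low-count filter. Cebpb, named after its values were seen, had 89 reads in KO and 25 in WT. All its KO libraries were above all WT libraries. Reads in KO and WT were 11 and 10 for Slc7a3, 2 and 15 for Gdf15, and 0 and 2 for Fgf21. None of these was tested. Cebpg, a factor that pairs with Atf4 at C/EBP-ATF elements, rose by 0.77 ± 0.17 (118 ± 11.4 CPM in KO and 63.9 ± 18.6 CPM in WT). All its KO libraries were above all WT libraries, as in 6.2% of all tested genes. Amino acid transporter genes went both ways, with Slc1a4 at 1.66 ± 0.42, Slc7a5 at 0.91 ± 0.23 and Slc7a11, named after its values were seen, at 1.62 ± 0.41, while Slc3a2, which encodes the chain shared by the transporters of Slc7a5 and Slc7a11, fell by 0.44 ± 0.14. Ndrg1 rose by 2.62 ± 0.55 (10.4 to 36.3 CPM in KO and 0.694 to 20.2 CPM in WT). It is also abundant in oligodendrocytes, whose markers had the sums given above. The lipoprotein receptor gene Vldlr fell by 0.34 ± 0.11. The batch 2 ratios of Slc3a2 and Vldlr, the 2 lower targets, were -0.10 and -0.001. Aminoacyl tRNA synthetase genes, a further class of Atf4 targets, had 0 of 12 members higher and 5 lower (41.7%), with a median of -0.25, where 10.9% of all tested genes were higher and 13.4% lower. Mars fell by 1.20 ± 0.28, Iars by 0.54 ± 0.15, Aars by 0.49 ± 0.12 and Wars by 0.43 ± 0.12, and Yars, named after its values were seen, by 0.48 ± 0.14. The KO libraries of the first 4 were below every WT library, as were those of 6.77% of all tested genes. These 4 were named by smallest p, a choice that favours separated genes. The batch 2 ratios of Mars, Iars, Aars and Wars were -0.31, -0.46, -0.20 and -0.38.

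Genes of the reticulum itself were called in both directions. The chaperone and the entry and export lists each had 5.26% of their genes higher and 21.1% lower, and the sensor relays 10% and 20%, beside 10.9% and 13.4% of all tested genes. Of 19 chaperone and folding genes 1 was higher, the lectin chaperone gene Canx (0.33 ± 0.11), and 4 were lower, namely Ppib (-1.31 ± 0.38), Sdf2l1 (-1.12 ± 0.34), Pdia4 (-0.59 ± 0.19) and Pdia3 (-0.35 ± 0.10). The batch 2 ratios of Ppib and Sdf2l1, a cyclophilin gene and a partner of the chaperone BiP, were 0.18 and 0.16. Those of Canx, Pdia4 and Pdia3 were 0.04, -0.76 and -0.07. Hspa5, which encodes BiP and is the classic readout of the unfolded protein response, had 363 ± 49.4 CPM in KO and 387 ± 20.9 CPM in WT and a log2 fold change of -0.06 ± 0.10 (adjusted p = 0.687). Dnajb9, a direct target of Xbp1, had -0.09 ± 0.16 (adjusted p = 0.710). Both were chosen after their values were seen. Of 17 genes of degradation at the reticulum 4 were higher (23.5%, against 10.9% of all tested genes) and 3 lower (17.6%, against 13.4%). Erlec1 (0.49 ± 0.13), Vcp (0.48 ± 0.17), Selenos (0.45 ± 0.12) and Derl1 (0.44 ± 0.11) rose by like amounts, and Edem2 (-1.22 ± 0.24), Ube2j1 (-0.72 ± 0.16) and Os9 (-0.53 ± 0.13) fell. In the same order, their batch 2 ratios were 0.49, -0.01, 0.04 and 0.14, and -0.47, -0.10 and -0.23. Vcp was near the threshold (adjusted p = 0.0492 by edgeR). Its call was lost, among other fits, with library totals alone (0.0528) and by limma-voom (0.0785). Among 19 genes of entry into and exit from the reticulum 1 was higher, Sec63 (0.50 ± 0.16), and 4 were lower. Sec61a1, the channel subunit, was at 63.2 ± 14.7 CPM in KO and 161 ± 38.4 CPM in WT (log2 fold change -1.33 ± 0.22, adjusted p = 0.00236), with a batch 2 ratio of -0.53. Every KO library was below every WT library for it, as in 6.77% of all tested genes. Sec61a1, like Eif2b1, Eif2b2 and Cebpg above, was named by smallest p, a choice that favours separated genes. Separation was not counted over whole lists. Ssr4, Sec31a and Srprb fell by 0.94 ± 0.24, 0.58 ± 0.14 and 0.33 ± 0.11, with batch 2 ratios of 0.04, -0.46 and -0.18. Of 10 tested relays of the sensors, Creb3l1 and Creb3, membrane-bound factors related to Atf6, fell by 1.61 ± 0.35 and 0.73 ± 0.15, and Bak1, a cell death gene, rose by 1.45 ± 0.38 (batch 2 ratio -0.10).

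**Figure D4:**
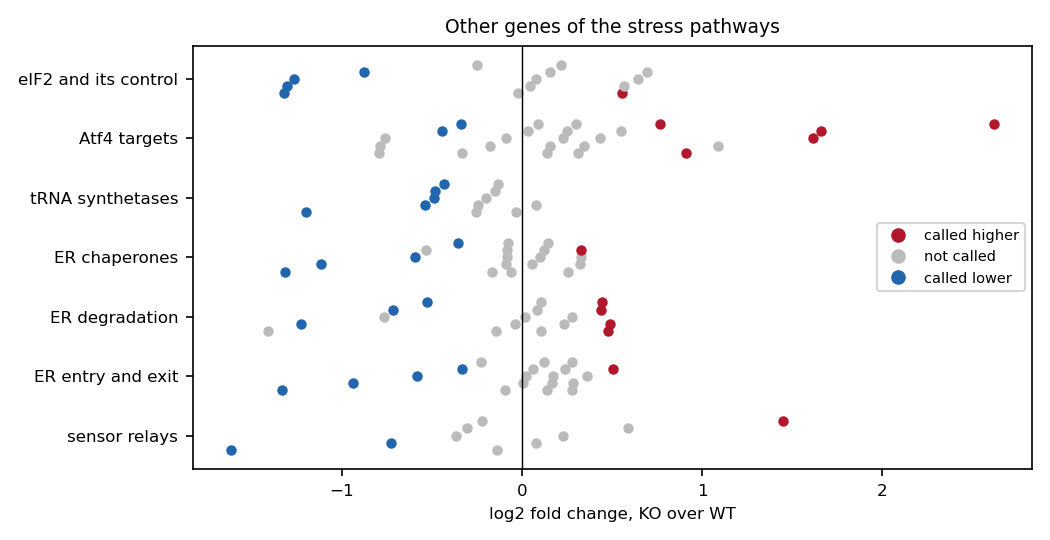
Log2 fold change of KO over WT (x axis) for each of the 116 tested pathway genes, 1 point per gene in rows by list, coloured by its call. Calls in both directions appear in every row but that of the tRNA synthetases, where the 5 called genes are all lower.

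The genes whose batch-centred log2 CPM ran closest to that of Atf4 over the 11 libraries were Ywhaq, which encodes a 14-3-3 protein, Hnrnpa2b1, an RNA-binding protein gene, and Srp9, a subunit gene of the signal recognition particle. Their root mean square distances from Atf4 were 0.04, 0.04 and 0.05 log2 units, against a median of 0.36 over the tested genes with a named symbol and at least 10 CPM. Closest to Xbp1 were Sars2, the mitochondrial seryl tRNA synthetase gene, Aen, a nuclease gene, and Copg1, a coat protein gene of vesicles from the Golgi, at 0.07, 0.07 and 0.08 log2 units against a median of 0.47. Copg1 had 173 ± 89.3 CPM in KO and 288 ± 22.4 CPM in WT. The distances are small by choice, since the closest genes were picked. Fitted log2 fold changes were 0.51, 0.52 and 0.49 for Ywhaq, Hnrnpa2b1 and Srp9, and -0.65, -0.82 and -0.91 for Sars2, Aen and Copg1. The distance includes the difference between KO and WT, so fold changes like those of Atf4 and Xbp1 follow from the choice.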

How the data were processed

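Ribosome-bound RNA was counted in 11 libraries, 4 KO and 7 WT. The deposited tables, 1 per library, give raw counts of reads for 55421 genes, followed by 5 summary lines. Per the submitters' processing notes reads were aligned with STAR to GRCm38 and counted with HTSeq; versions and the strand setting were not stated. The summary lines, 20.7% to 26.1% of counted alignments in KO and 18.3% to 20.4% in WT, stayed out of totals and tests. No library was a copy of another (smallest chi-square per degree of freedom 2.40).

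The test was that of edgeR 4.0.16 (R 4.3.3), after filterByExpr on the group (13375 genes) and TMM scaling, in a quasi-likelihood model across all genes with batch and genotype (7 residual degrees of freedom), with Benjamini-Hochberg adjustment over all genes, two-sided, and a threshold of 0.05. The model was run on simulated data first. These were drawn without batch differences, so that run does not check how batch differences or the dependence on single libraries are handled. CPM values are TMM-scaled and not adjusted for batch, 2 was the prior count for log2 CPM and 0.5 CPM the pseudocount for ratios within batches. Standard errors were derived from each fold change and its F statistic. Positions and promoters come from RefSeq tables of the same build. Reads carry no molecular identifiers, so floors of 3 counts cover counting error only. The animal tag is no shared number, so libraries were not paired.

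The members and lists were chosen with earlier results of these data known. Named were the 10 members, up to 4 called genes per list and direction with the smallest p, and the 3 genes of at least 10 CPM closest to Atf4 and to Xbp1; exceptions are marked. Alternatives were no batch term, DESeq2 1.42.0 size factors or Wald test, library totals alone, 2 other filters, limma-voom (limma 3.58.1), each library left out, batch 2 left out, animals tagged M only, library total or purity score as covariate, thinning, other arm memberships and a shorter promoter window.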

Additional observations from a re-analysis of the deposited data

Results flagged for a closer look

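Trib3 in KO M456 stood far from the other KO libraries, at 5.62 CPM (14 reads) where they had 0 to 0.29 CPM. The gap between the Atf4 arm and the Xbp1 arm was 0.97 on the log2 scale in WT M476, apart from the other WT libraries at 0.19 to 0.52. Both values passed Dixon's criterion at the 95% level, which chance passes in about 1 in 20 groups, and 22 groups were examined.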

How the results depend on the processing

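Of the 7 called genes of the set, the 3 higher and 4 lower calls were also made with DESeq2 size factors, library totals alone, both other filters, the DESeq2 Wald test, thinning and without batch 2. Of the 4 lower calls 2 were made without the batch term (Chac1 and Xbp1) and 2 in animals tagged M only (Chac1 and Xbp1), where 2 of the 3 higher calls were made (Atf4 and Atf5). With the library total or the purity score as a covariate, edgeR called 0 genes higher and 0 lower, of the set, of the pathway lists and of all genes, with 1841 and 2162 genes at an unadjusted p under 0.05; the arm gap was then -1.01 and -0.026, against -0.47 (-0.71 to -0.19 leaving out 1 library, -0.29 without batch 2, and -0.62 and -0.71 with Herpud1, or Atf6 and Herpud1, out of the Xbp1 arm), and the score covariate is built from markers that themselves differ. Herpud1 and Atf6 are the genes of the Xbp1 arm that were not called. The gap without Chac1 (-1.97) or Ern1 (1.64), which weigh most in it, was not computed. Without batch 2, 2262 genes and 21 pathway genes were higher. Leaving out 1 library gave 64 (M456) to 2269 (M386) genes higher and 216 (M379) to 2397 (M390) lower, 0 to 3 genes of the set higher and 0 to 4 lower, and 0 to 21 pathway genes higher and 2 to 26 lower. The 0 for the set came without M456 and without M379, by edgeR, with 8 and 6 of its genes at an unadjusted p under 0.05 (3129 and 3624 of all genes). Signs of the 9 tested genes held in all alternatives. Signs turned for Selenos (-0.00104 with the library total), Dnajb9 (0.070 without the batch term, 0.14 with the library total), Hspa5 (0.040 with the purity score; -0.22 to 0.11 leaving out 1 library) and Eif2ak3 (-0.11 with the purity score; -0.063 to 0.32 leaving out 1 library). Over the 46 other named genes and all alternatives, 239 of 1058 values lost a call and 8 turned sign, all in these 4 genes. Without a filter the median log2 fold change of all genes was -0.21. With upstream bases alone, 3 rather than 4 promoters held a motif. The causes were not tested. Trib3 had 0 to 23 reads a library, too few to pass the filter of the main fit. It did enter the arm gap with both other filters, without batch 2 and in animals tagged M only. The same holds without KO F371, M374 or M390, so the arm gaps given above do not all cover the same genes.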
